A study of Mus musculus with 2 samples.

Results

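The axon guidance ligands and receptors of the adult hippocampus were described here as 70 genes: ephrins and their Eph receptors, semaphorins with the plexins and neuropilins, Slits with the Robo receptors, and netrins with the Unc5 receptors. They were chosen by symbol from the 24130 symbols of the count tables. Of the 70, 67 belong to these families, and 3 were matched by symbol only. These are Unc50, a Golgi protein, Unc5cl, an Unc5c-like protein not counted here as a netrin receptor, and Plxna4os1, an antisense transcript of Plxna4. All 70 have a single place in the GENCODE M21 annotation of mm10, from which the coordinates below are taken. Together they held 28419 unique molecular identifiers (UMIs, each a counted RNA molecule) in the EMF+AuNPs library and 77931 in the Control library, which is 1454 and 1525 when each library is scaled to 1e6 UMIs (the unit CPM, used below with the total of a cell type).

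The study asked, by its design, how gold nanoparticles (AuNPs) injected into the hippocampus, together with an electromagnetic field (EMF), change hippocampal cells. There were 2 single-cell libraries, each from male C57BL/6 mice labelled 6 months old, although the sample titles call the brains aged. The EMF+AuNPs library came from mice given AuNPs and placed between Helmholtz coils, with 3 weeks of exposure. The Control library came from mice labelled Saline, and the protocol does not make clear if these also went between the coils. The number of animals in each library is not given in the sources used here. With 1 library per group, differences between libraries have no replicate check, no test was run, and every interval covers counting error only, so treatment, animal, dissection and library cannot be told apart.

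The EMF+AuNPs library held 7003 cells with a median of 2310 UMIs, and the Control library 21583 cells with a median of 1904 UMIs. The 2 libraries shared 38 cell barcodes. Cells were assigned to a type by fixed marker genes, none of them a guidance gene, and cells carrying markers of a second type were left out as likely doublets. Of 19 types, 11 had at least 50 cells in each library and were compared. Their sizes ran from 55 excitatory neuron-like to 1563 astrocyte-like cells in EMF+AuNPs, and from 94 border macrophage-like to 6141 oligodendrocyte-like cells in Control. Oligodendrocyte-like cells numbered 1077 in EMF+AuNPs, and excitatory neuron-like cells 338 in Control. Oligodendrocyte-like cells made up 18.9% of the typed EMF+AuNPs cells and 34.9% of the typed Control cells, and astrocyte-like cells 27.5% in EMF+AuNPs and 18.4% in Control. Markers of a type were also counted in cells of other types in both libraries, and their source, such as free RNA or doublets, was not tested. The 10 oligodendrocyte markers summed to 2667 CPM in microglia-like cells of the EMF+AuNPs library and 1148 CPM in those of the Control library, where oligodendrocyte-like cells themselves had 36245 CPM in EMF+AuNPs and 32193 CPM in Control.

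Guidance molecules are best known for steering growing axons. Ephrins sit in the cell membrane and bind Eph receptors on a neighbouring cell, so their signal needs cell contact and can pass in both directions. Semaphorins signal through plexins, and most secreted class members need a neuropilin as co-receptor, while Slits bind Robo receptors and netrins bind Dcc or Unc5 receptors. In the adult brain the same families are also known in synapses, myelinating cells and blood vessels.

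Members of the families were found in neurons, glia and vessels, and many were highest in the same cell type in both libraries. Of the 70, 57 had at least 100 UMIs in typed cells. For 47 of these 57 the highest of the 11 cell types was the same in both libraries, against 60.6% of all genes with as many UMIs. For 20 of the 57 that type also stood at least 2-fold above the next one in each library, against 20.2% of all such genes. Excitatory neuron-like cells led 7 of the 20, endothelial-like cells 4, oligodendrocyte-like cells 3, astrocyte-like cells 2, pericyte-like cells 2, and choroid plexus-like and smooth muscle-like cells 1 each. By role, the 2-fold lead was met by 5 of 14 Eph receptors, 1 of 8 ephrins, 7 of 19 semaphorins, 2 of 11 plexins and neuropilins, 3 of 7 Slits and Robos, and 2 of 8 netrins and Unc5 receptors. Epha8, Efna3 and Sema3a had fewer than 20 UMIs in typed cells and are named only.

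**Figure D1:**
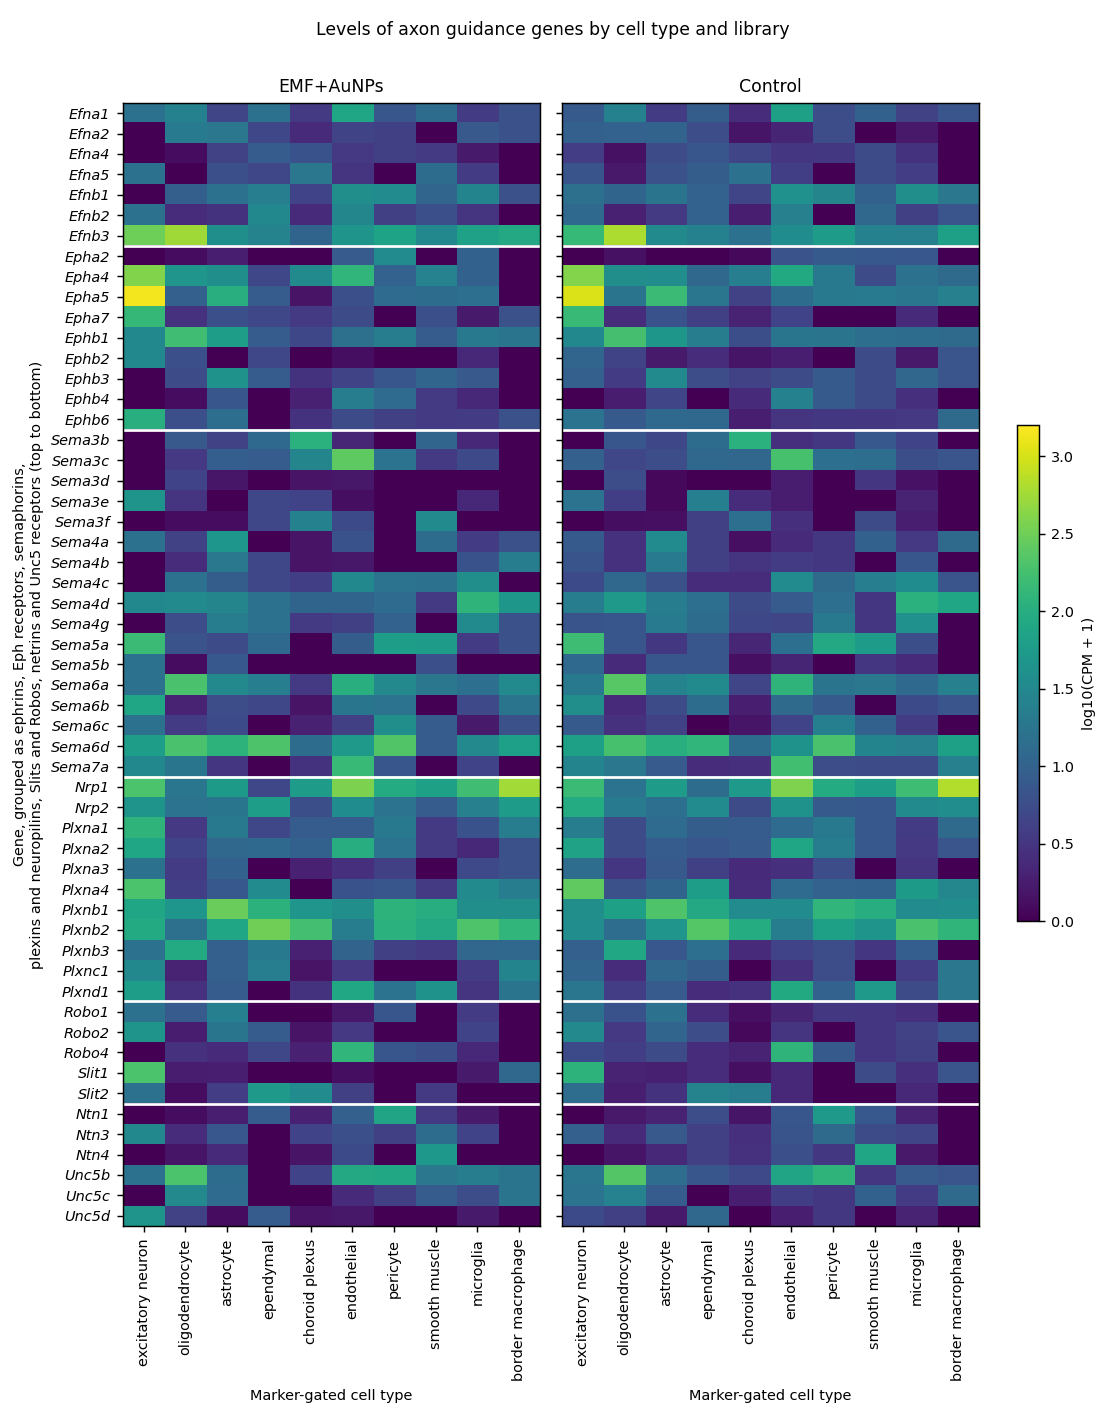
Level of each guidance gene with at least 100 UMIs in typed cells (rows, grouped by role) in 10 marker-gated cell types (columns), as log10 of CPM plus 1, in the EMF+AuNPs library (left) and the Control library (right). The brightest cells of both panels are Epha5 in excitatory neuron-like cells, at 1399 CPM in the EMF+AuNPs library and 1075 CPM in the Control library.

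The promoters of 4 members led by a single vessel or glial type are shown here as examples: Robo4 and Sema3c, led by endothelial-like cells, and Ephb1 and Plxnb3, led by oligodendrocyte-like cells. Each runs from 250 bases before to 50 bases after a start listed by RefSeq (build GRCm38.p6), on the strand of the gene. Capitals mark 2 short motifs searched on both strands, GGAAG (the core bound by ETS factors, which are known in endothelium) and ACAAAG (a core bound by SOX factors, which are known in oligodendrocytes).
Robo4 (chr9:37401722-37402021, plus strand): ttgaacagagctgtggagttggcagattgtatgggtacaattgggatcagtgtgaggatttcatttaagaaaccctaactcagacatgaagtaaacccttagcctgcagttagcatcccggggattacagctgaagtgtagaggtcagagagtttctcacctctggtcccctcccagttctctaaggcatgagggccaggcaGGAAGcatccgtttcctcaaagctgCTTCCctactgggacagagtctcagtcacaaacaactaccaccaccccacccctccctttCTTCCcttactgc
Sema3c (chr5:17574566-17574865, plus strand): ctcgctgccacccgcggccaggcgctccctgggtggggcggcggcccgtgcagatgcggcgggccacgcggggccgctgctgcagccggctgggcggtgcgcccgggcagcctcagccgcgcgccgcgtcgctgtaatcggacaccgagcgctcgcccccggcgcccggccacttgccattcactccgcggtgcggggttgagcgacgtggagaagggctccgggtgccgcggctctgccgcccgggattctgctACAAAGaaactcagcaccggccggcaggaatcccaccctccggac
Ephb1 (chr9:102354644-102354943, minus strand): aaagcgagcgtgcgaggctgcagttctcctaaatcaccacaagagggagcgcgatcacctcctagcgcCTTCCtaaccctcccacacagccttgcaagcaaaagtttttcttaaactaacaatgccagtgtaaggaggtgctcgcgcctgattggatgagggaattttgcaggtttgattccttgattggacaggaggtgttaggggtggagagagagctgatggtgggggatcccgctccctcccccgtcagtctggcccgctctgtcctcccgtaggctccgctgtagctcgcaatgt
Plxnb3 (chrX:73756853-73757152, plus strand): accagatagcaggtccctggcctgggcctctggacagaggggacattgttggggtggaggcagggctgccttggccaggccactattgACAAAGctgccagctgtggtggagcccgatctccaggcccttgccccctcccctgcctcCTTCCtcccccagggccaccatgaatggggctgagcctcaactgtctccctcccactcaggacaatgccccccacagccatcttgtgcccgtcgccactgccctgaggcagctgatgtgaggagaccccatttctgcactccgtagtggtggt
Robo4 held GGAAG in 3 places and Sema3c in 0, while Ephb1 held it in 1 and Plxnb3 in 1. ACAAAG stood once in Sema3c and once in Plxnb3. Of the other members led at least 2-fold by these types, Sema7a (endothelial-like) held neither motif. Efna1 (endothelial-like) held GGAAG in 2 places at each of 2 listed starts, and Sema3d (oligodendrocyte-like) held each motif in 2 places. Neither motif was confined to the genes of 1 leading cell type, and both are common: 71.4% of all 32851 listed promoters hold GGAAG and 18.7% hold ACAAAG. RefSeq's table listed a promoter for 60 of the 70 members.

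Among the ephrins, Efnb3 (chromosome 11, 69554092 to 69560205), a transmembrane ephrin known in mice as a midline barrier for axons, was the most counted member. Oligodendrocyte-like cells held 547 CPM (95% Poisson interval 524 to 571) in the EMF+AuNPs library and 643 CPM (630 to 656) in the Control library. Excitatory neuron-like cells came next at 312 CPM (193 to 478) in EMF+AuNPs and 137 CPM (111 to 167) in Control. Oligodendrocyte-like cells thus led in both libraries without overlap of these intervals. Efna1 (chromosome 3, 89271733 to 89281142), an ephrin anchored to the membrane by a lipid, lay in endothelial-like cells at 77.0 CPM in the EMF+AuNPs library and 64.4 CPM in the Control library. The next level of Efna1 was 24.2 CPM in EMF+AuNPs and 24.5 CPM in Control, in oligodendrocyte-like cells.

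The 5 Eph receptors with a 2-fold lead were led by glial or neuronal types, while Ephb4 was led by endothelial-like cells at 21.6 CPM in EMF+AuNPs and 24.7 CPM in Control. Ephb1 (chromosome 9, 101922128 to 102354693), a receptor for B-type ephrins, had 163 CPM (151 to 176) in oligodendrocyte-like cells of the EMF+AuNPs library and 177 CPM (170 to 184) in those of the Control library. Its second cell type was astrocyte-like, with 58.7 CPM in EMF+AuNPs and 48.8 CPM in Control. Ephb3 (chromosome 16, 21204755 to 21223305), another B-type receptor, was led by astrocyte-like cells at 41.4 CPM in EMF+AuNPs and 33.0 CPM in Control. The A-type receptors Epha4, Epha5 and Epha7 were instead led by excitatory neuron-like cells. Epha5 (chromosome 5, 84054761 to 84417382) had 1399 CPM there in the EMF+AuNPs library, from 94 UMIs, and 1075 CPM in the Control library, from 753 UMIs. Its next type, astrocyte-like, had 103 CPM in EMF+AuNPs and 149 CPM in Control. Epha4 (chromosome 1, 77367185 to 77515088), which binds ephrins of both kinds, had 387 CPM in EMF+AuNPs and 398 CPM in Control in excitatory neuron-like cells. Its second cell type was the endothelial-like one, at 126 CPM in the EMF+AuNPs library and 88.0 CPM in the Control library. Epha7 had 134 CPM in EMF+AuNPs and 141 CPM in Control in excitatory neuron-like cells, from 9 UMIs in EMF+AuNPs and 99 in Control, and only single-digit CPM in every other compared type of both libraries.

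Semaphorins led by a single type were found in several types. Sema3c (chromosome 5, 17574281 to 17730268), a secreted semaphorin known from the formation of the heart's outflow vessels, had 255 CPM (239 to 273) in endothelial-like cells of the EMF+AuNPs library and 182 CPM (172 to 193) in those of the Control library. No other compared type passed 27.7 CPM in the EMF+AuNPs library or 13.9 CPM in the Control library. Sema7a (chromosome 9, 57940112 to 57962865), a lipid-anchored semaphorin, was also led by endothelial-like cells, at 146 CPM in EMF+AuNPs and 168 CPM in Control. Sema3b (chromosome 9, 107597674 to 107609229), a secreted semaphorin, had 109 CPM in choroid plexus-like cells of each library and 11.3 CPM in EMF+AuNPs and 12.3 CPM in Control in ependymal-like cells, its next type. Sema4a (chromosome 3, 88435959 to 88461182), a transmembrane semaphorin, was led by astrocyte-like cells at 47.3 CPM in EMF+AuNPs and 33.5 CPM in Control. Sema6b and Sema6c, transmembrane semaphorins of 1 class, had different leading types. Sema6b, led by excitatory neuron-like cells, had 74.4 CPM from 5 UMIs in EMF+AuNPs and 37.1 CPM from 26 UMIs in Control, and Sema6c, led by pericyte-like cells, had 36.9 CPM from 12 UMIs in EMF+AuNPs and 23.2 CPM from 10 UMIs in Control.

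Some semaphorins were shared between types. Sema6a (chromosome 18, 47235598 to 47368870), a ligand of class A plexins, had 189 CPM in oligodendrocyte-like cells of the EMF+AuNPs library and 235 CPM in those of the Control library, with 104 CPM in EMF+AuNPs and 118 CPM in Control in endothelial-like cells. Sema6d reached 212 CPM in EMF+AuNPs and 190 CPM in Control in pericyte-like cells and 188 CPM in EMF+AuNPs and 182 CPM in Control in oligodendrocyte-like cells, and the intervals of these 2 types overlapped in each library. Sema4d (chromosome 13, 51685529 to 51793747), the known ligand of Plxnb1, was highest in microglia-like cells at 119 CPM (102 to 138) in EMF+AuNPs and 110 CPM (100 to 120) in Control.

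The plexins and neuropilins were led by several types. Plxnb1 (chromosome 9, 109095389 to 109119917) was highest in astrocyte-like cells, with 294 CPM (276 to 312) in the EMF+AuNPs library and 207 CPM (196 to 220) in the Control library, and pericyte-like cells followed with 117 CPM in EMF+AuNPs and 125 CPM in Control. Plxnb2 (chromosome 15, 89155549 to 89180788), a receptor for class 4 semaphorins, was highest in ependymal-like cells at 320 CPM in EMF+AuNPs and 224 CPM in Control, with microglia-like cells next at 205 CPM in EMF+AuNPs and 191 CPM in Control. Plxnb3 (chromosome X, 73757090 to 73772514) was led by oligodendrocyte-like cells, at 90.1 CPM in EMF+AuNPs and 82.6 CPM in Control, more than 4 times the next type. Plxna4 (chromosome 6, 32144268 to 32588192), a partner of neuropilin 1 for secreted semaphorins, was led by excitatory neuron-like cells at 193 CPM from 13 UMIs in EMF+AuNPs and 263 CPM from 184 UMIs in Control. Nrp1 (chromosome 8, 128358604 to 128503363), the co-receptor for class 3 semaphorins and for the vessel growth factor VEGF, was highest in border macrophage-like cells at 568 CPM in EMF+AuNPs and 677 CPM in Control. Endothelial-like cells came second for Nrp1, at 365 CPM in EMF+AuNPs and 385 CPM in Control. They led Plxnd1, at 82.1 CPM in EMF+AuNPs and 86.5 CPM in Control, and Plxna2, at 98.6 CPM in EMF+AuNPs and 78.3 CPM in Control, both less than 2-fold above the next type.

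Robo4 (chromosome 9, 37401897 to 37415115), the Robo receptor known from endothelium, was counted almost wholly in endothelial-like cells. It had 127 CPM (115 to 140) in endothelial-like cells of the EMF+AuNPs library and 120 CPM (112 to 129) in those of the Control library, against at most 7.80 CPM in EMF+AuNPs and 6.96 CPM in Control elsewhere. After each cell was thinned to 1000 UMIs, which kept 1093 of 1149 endothelial-like cells of EMF+AuNPs and 2612 of 3057 of Control, 12.6% (10.7 to 14.7, Clopper-Pearson) of those in EMF+AuNPs and 10.8% (9.67 to 12.1) of those in Control had a Robo4 UMI. Oligodendrocyte-like cells, which should lack it, had it in 0 of 1062 EMF+AuNPs cells, which allows a share of up to 0.282%, and in 0.297% of 5726 Control cells. Unthinned, the shares of endothelial-like cells were 27.7% in EMF+AuNPs and 22.5% in Control, at medians of 2301 UMIs per cell in EMF+AuNPs and 1680 in Control. In oligodendrocyte-like cells they were 0.650% in EMF+AuNPs and 0.668% in Control, at medians of 3406 UMIs in EMF+AuNPs and 2317 in Control.

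Among the Slits, netrins and Unc5 receptors, Slit1 (chromosome 19, 41600257 to 41743665), a secreted repellent, had 193 CPM from 13 UMIs in EMF+AuNPs and 117 CPM from 82 UMIs in Control in excitatory neuron-like cells. Robo2, a Slit receptor, was highest among the compared types in these cells, at 44.6 CPM from 3 UMIs in EMF+AuNPs and 31.4 CPM from 22 UMIs in Control. Cajal-Retzius-like cells, too few to be compared, had a higher Robo2 level in both libraries, as given further below. Slit2 was highest in the types that line the ventricles, with 52.7 CPM in EMF+AuNPs and 26.2 CPM in Control in ependymal-like cells and 34.2 CPM in EMF+AuNPs and 20.9 CPM in Control in choroid plexus-like cells. Ntn1 (chromosome 11, 68209364 to 68400823), the founding netrin, was led by pericyte-like cells at 73.8 CPM (47.3 to 110) in EMF+AuNPs and 53.3 CPM (33.8 to 80.0) in Control. Ntn4 (chromosome 10, 93640681 to 93747207), a netrin of basement membranes, was led by smooth muscle-like cells at 50.3 CPM (30.7 to 77.7) in EMF+AuNPs and 77.8 CPM (54.2 to 108) in Control. The receptor Unc5b (chromosome 10, 60762593 to 60831581) had 198 CPM in EMF+AuNPs and 217 CPM in Control in oligodendrocyte-like cells, 84.5 CPM in EMF+AuNPs and 72.9 CPM in Control in endothelial-like cells, and 83.0 CPM in EMF+AuNPs and 118 CPM in Control in pericyte-like cells.

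**Figure D2:**
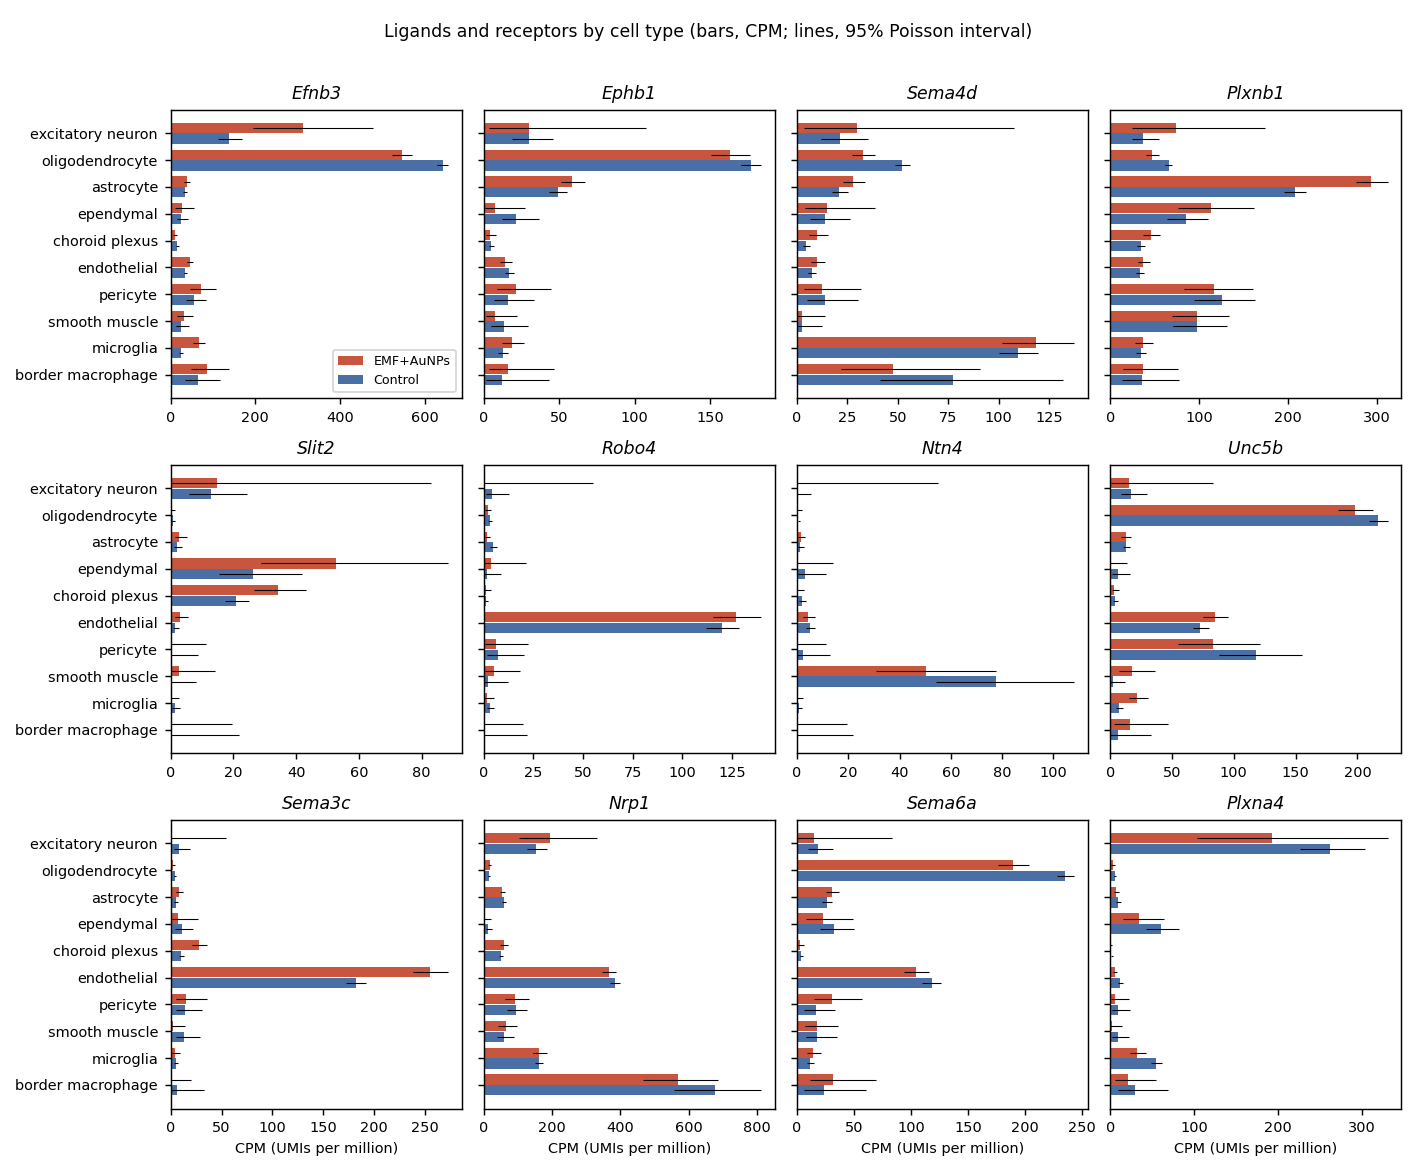
Level (CPM, horizontal axes starting at 0) of 12 ligands and receptors in 10 cell types, with the EMF+AuNPs library above the Control library in each pair of bars and lines for the 95% Poisson interval. Efnb3 and Ephb1 share oligodendrocyte-like cells as their highest type, whereas Sema4d is highest in microglia-like cells and its receptor Plxnb1 in astrocyte-like cells.

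Arterial and venous endothelial cells were set apart within each library by vessel markers that are no guidance genes. Efnb2 and its receptor Ephb4 are the classical arterial and venous pair, and Unc5b and Nrp2 are known from arterial and venous or lymphatic vessels. The 8 arterial markers fixed earlier included Clu, which had a UMI in 91.2% of EMF+AuNPs and 77.3% of Control endothelial-like cells, and left 3 venous cells in EMF+AuNPs and 37 in Control. Without Clu, a choice made after the data were seen, there were 97 arterial and 87 venous cells in EMF+AuNPs, and 249 and 185 in Control. Of the arterial markers used, Gkn3, Bmx, Hey1, Stmn2 and Vegfc were higher in arterial cells than in endothelial-like cells of neither kind in both libraries. Mgp was so in Control only and Cytl1 in neither library. These markers defined the arterial cells, so a higher level there follows from the gate and is no check of it. The endothelial-like cells of neither kind include cells with markers of both kinds. Of 20 members with at least 200 endothelial UMIs, 2 were at least 1.5-fold higher in arterial cells in both libraries, where 4.33% of all such genes were. Unc5b had 163 CPM in arterial and 16.4 CPM in venous cells of the EMF+AuNPs library, and 131 and 26.7 CPM in the Control library. Efnb2 had 38.1 and 5.48 CPM in the EMF+AuNPs library, from 11 and 2 UMIs, and 40.8 and 7.41 CPM in the Control library, from 24 and 5 UMIs. Both genes were thus higher in arterial than in venous cells of each library, and no interval held 0. The log2 ratio was 3.23 in EMF+AuNPs and 2.25 in Control for Unc5b, and 2.59 in EMF+AuNPs and 2.31 in Control for Efnb2. In endothelial-like cells of neither kind, Efnb2 had 30.2 CPM (24.0 to 37.5) in EMF+AuNPs and 23.6 CPM (19.8 to 28.0) in Control. Its arterial intervals, 19.0 to 68.1 CPM in EMF+AuNPs and 26.1 to 60.7 CPM in Control, overlapped these. Unc5b had 85.4 CPM in EMF+AuNPs and 72.4 CPM in Control there.

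On the venous side, 3 of the 20 members were at least 1.5-fold lower in arterial cells in both libraries, where 3.22% of all such genes were. Nrp2, a co-receptor for secreted semaphorins, had 3.46 CPM in arterial and 85.0 CPM in venous cells of the EMF+AuNPs library, from 1 and 31 UMIs. It had 15.3 and 104 CPM in the Control library, from 9 and 70 UMIs. Sema6a had 69.2 and 156 CPM in the EMF+AuNPs library, and 81.6 and 182 CPM in the Control library. Its arterial over venous log2 ratio was -1.16 (95% interval -1.99 to -0.42) in the EMF+AuNPs library and -1.15 (-1.67 to -0.67) in the Control library. Ephb4 had 17.3 and 27.4 CPM in the EMF+AuNPs library, and 18.7 and 34.1 CPM in the Control library, and its intervals held 0 in both. Robo4 had 111 and 107 CPM in the EMF+AuNPs library, and 95.2 and 116 CPM in the Control library, a difference within counting error.

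**Figure D3:**
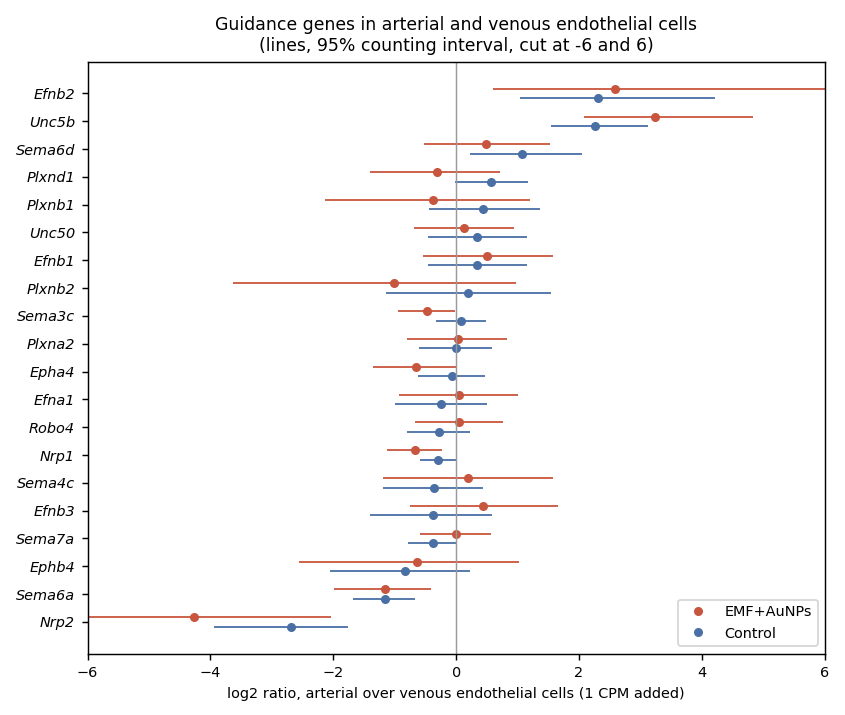
Log2 ratio of arterial over venous endothelial-like cells (horizontal axis, 1 CPM added) for 20 members, with the EMF+AuNPs library above the Control library and lines for the 95% counting interval, drawn no further than -6 and 6. Unc5b and Efnb2 lie right of 0 in both libraries, and Nrp2 and Sema6a lie left of 0 in both.

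Between the libraries, most members were within 1.5-fold in a given cell type. A member was compared in a type where it had at least 50 UMIs over both libraries. It also needed at least 20% of its highest level in any compared type, a condition meant to hold back RNA from other types. Both conditions together left 52 members and 99 pairs of a member and a type. Of the 99 pairs, 20 were at least 1.5-fold higher and 4 at least 1.5-fold lower in the EMF+AuNPs library, and 75 were within 1.5-fold. Of all pairs of a gene and a type compared in the same way, 13.6% were higher and 9.40% lower. Of the 24, 3 had a counting interval of the ratio that held 0, and of the 75, 17 had one that did not. Without the 3 genes matched by symbol only, 15 were higher and 3 lower.

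In astrocyte-like cells, 7 of 22 members were at least 1.5-fold higher and 0 lower, while 18.1% of all genes compared there were higher and 6.64% lower. The 7 include Unc50, which was matched by symbol only. The median log2 ratio of EMF+AuNPs over Control was 0.33 for the members and 0.19 for all genes. Plxnb2 had 76.2 CPM in the EMF+AuNPs library and 45.6 CPM in the Control library, a log2 ratio of 0.73 (95% interval 0.49 to 0.99). The Slit receptors Robo1 and Robo2 had 22.8 CPM in EMF+AuNPs against 14.6 CPM in Control and 16.7 CPM in EMF+AuNPs against 10.1 CPM in Control, with log2 ratios of 0.61 and 0.67. Efna2, a lipid-anchored ephrin, had 17.5 CPM in EMF+AuNPs against 9.37 CPM in Control and a ratio of 0.84. Plxna1, a semaphorin receptor, had 18.6 CPM in EMF+AuNPs against 12.1 CPM in Control and Unc5c, a netrin receptor, 12.2 CPM in EMF+AuNPs against 7.57 CPM in Control. After centring on the median of all genes, Plxnb2, Robo1, Robo2, Plxna1 and Unc5c fell within 1.5-fold. Plxnb1, the most counted plexin there, had a log2 ratio of 0.50 (0.38 to 0.62), just below 1.5-fold. Astrocyte-like cells of the EMF+AuNPs library were also deeper, with a median of 1979 UMIs against 1423 in Control, and the part of depth in these ratios was not tested.

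In oligodendrocyte-like cells, 2 of 18 members were at least 1.5-fold higher and 1 lower, while 7.23% of all genes compared there were higher and 7.12% lower. The 2 higher ones were Efna2 and Unc50, of which Unc50 was matched by symbol only. Efna2 (chromosome 10, 80179482 to 80190010) had 20.8 CPM (16.4 to 25.9) in the EMF+AuNPs library and 9.10 CPM (7.65 to 10.7) in the Control library, a log2 ratio of 1.11 (0.77 to 1.60). Sema4d, which signals to plexin B receptors, had 32.6 CPM in EMF+AuNPs against 52.1 CPM in Control, a log2 ratio of -0.66 (-0.96 to -0.40). Among the members described above for these cells, Efnb3 had a log2 ratio of -0.23 (-0.30 to -0.16), Sema6a -0.31 (-0.43 to -0.20), Ephb1 -0.12 (-0.25 to 0.01), Unc5b -0.13 (-0.25 to -0.02) and Plxnb3 0.12 (-0.05 to 0.30).

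In endothelial-like cells, Unc50 alone of 20 members was at least 1.5-fold higher and 0 were lower, while 9.44% of all genes compared there were higher and 5.39% lower. Sema3c and Epha4 came closest among the guidance genes, with log2 ratios of 0.48 (0.36 to 0.61) and 0.51 (0.33 to 0.70). Robo4 had a ratio of 0.08 (-0.09 to 0.25) and Nrp1 of -0.07 (-0.17 to 0.02). In microglia-like cells, 1 of 10 members was higher and 1 lower, while 7.59% and 12.8% of all genes compared there were. Both were matched by symbol only, and the higher one was Unc50. The lower one was Plxna4os1, with 35.4 CPM in the EMF+AuNPs library and 65.0 CPM in the Control library. It lies within Plxna4 on the opposite strand. The sources used here do not say how strand was counted, so it is not known if reads of the pair were kept apart. Sema4d and its receptor Plxnb2 had, in microglia-like cells, ratios of 0.11 (-0.14 to 0.37) and 0.10 (-0.09 to 0.29).

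**Figure D4:**
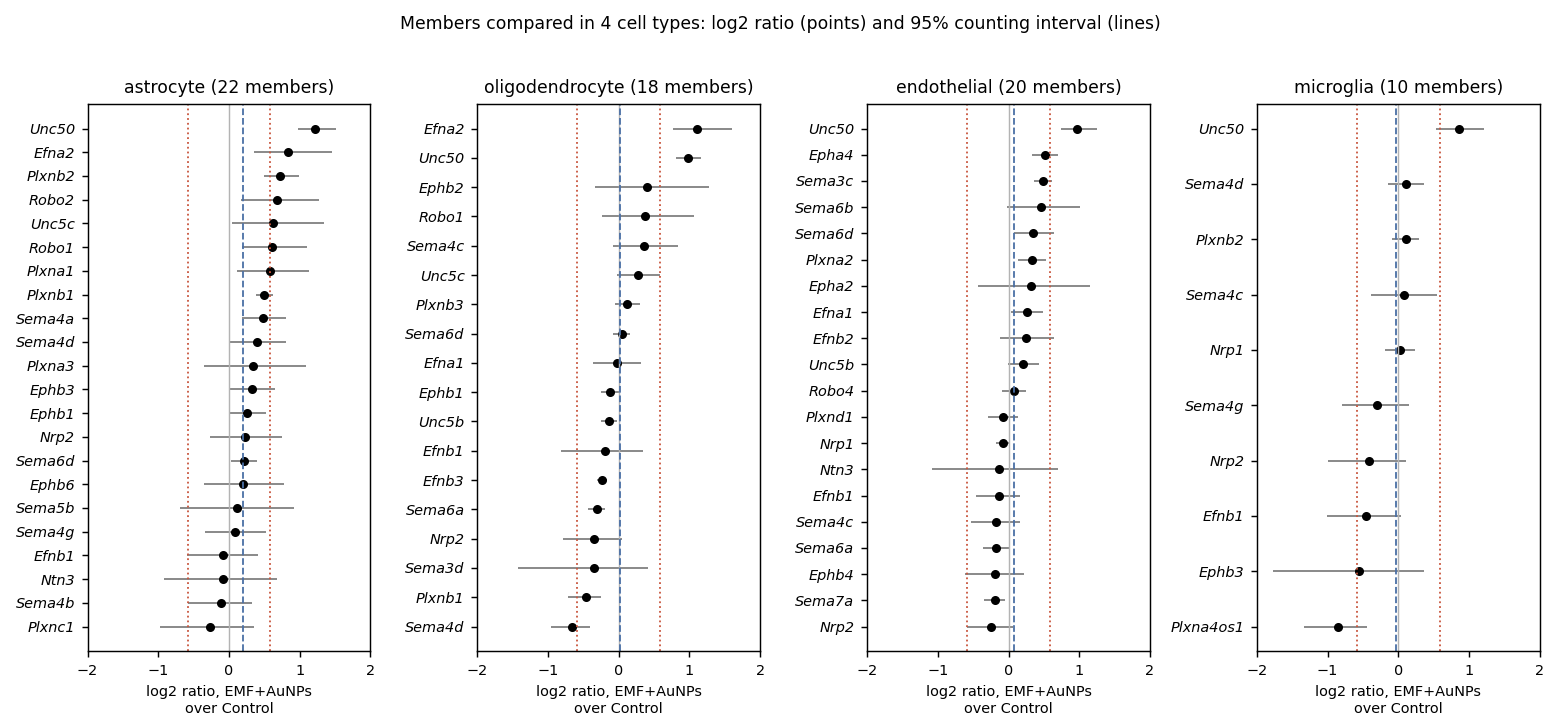
Log2 ratio of the EMF+AuNPs over the Control library (horizontal axes, 1 CPM added) for every member compared in astrocyte-like, oligodendrocyte-like, endothelial-like and microglia-like cells, with 95% counting intervals. Dotted lines mark 1.5-fold and the dashed line the median of all genes compared, which lies at 0.19 in astrocyte-like cells, 0.02 in oligodendrocyte-like, 0.07 in endothelial-like and -0.04 in microglia-like cells.

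The remaining types rest on fewer cells. In choroid plexus-like cells 4 of 6 members were at least 1.5-fold higher and 0 lower, while 29.9% and 3.73% of all genes compared there were, with median log2 ratios of 0.73 for the members and 0.32 for all genes. The 4 include Unc50, which was matched by symbol only. Plxnb2 had 176 CPM in the EMF+AuNPs library and 95.7 CPM in the Control library there, Slit2 34.2 CPM in EMF+AuNPs against 20.9 CPM in Control, and the secreted semaphorin Sema3f 24.3 CPM in EMF+AuNPs against 13.8 CPM in Control. Centring on the median of all genes brought these 3 within 1.5-fold. Plxnb2 was also higher in pericyte-like cells (111 CPM in EMF+AuNPs against 64.9 CPM in Control, 1 of 5 members, background 11.0% higher and 12.7% lower) and in smooth muscle-like cells (85.5 CPM in EMF+AuNPs against 44.5 CPM in Control, 1 of 3 members, background 13.6% higher and 10.7% lower). In all, Plxnb2 was at least 1.5-fold higher in 4 of the 6 types in which it was compared, and lower in 0, and it stayed at least 1.5-fold higher after centring in pericyte-like and smooth muscle-like cells.

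In smooth muscle-like cells the 1 lower member was Ntn4, from 20 UMIs in the EMF+AuNPs library and 35 in the Control library, with an interval that held 0 (-1.50 to 0.20). In ependymal-like cells 1 of 3 members was higher, Sema6d at 203 CPM in EMF+AuNPs against 125 CPM in Control, with a background of 14.3% higher and 11.0% lower. With TMM factors Sema6d fell within 1.5-fold there. Leaving out cells called doublets by the Scrublet-type caller kept 53 of 57 ependymal-like cells in EMF+AuNPs but 12 of 138 in Control, too few to compare. Border macrophage-like cells had 1 compared member, Nrp1, with a log2 ratio of -0.25 (-0.65 to 0.14), where 15.8% of all genes were higher and 12.9% lower. Red blood cell-like cells had 0 compared members, with a background of 13.3% and 9.22%.

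Excitatory neuron-like cells numbered 55 in the EMF+AuNPs library, so the values there are coarse. Of 11 members 2 were at least 1.5-fold higher and 1 lower, while 14.5% of all genes compared there were higher and 33.4% lower. The median log2 ratio was -0.04 for the members and -0.23 for all genes. Efnb3 had 312 CPM from 21 UMIs in EMF+AuNPs against 137 CPM from 96 UMIs in Control, a log2 ratio of 1.18 (0.43 to 1.88). Slit1 had a ratio of 0.72 (-0.24 to 1.58) and Nrp2 of -1.02 (-3.35 to 0.58), so the intervals of both held 0. The 8 neuron markers summed to 5445 CPM in excitatory neuron-like cells of the EMF+AuNPs library and 10451 CPM in those of the Control library. Oligodendrocyte markers summed to 3601 CPM in EMF+AuNPs and 2138 CPM in Control in the same cells, and their part in the Efnb3 value was not tested.

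Unc50, which shares only its spelling with the netrin receptors, was higher in more types than any other member. It was at least 1.5-fold higher in 5 of the 5 types in which it was compared, with 83.1 CPM in EMF+AuNPs against 35.1 CPM in Control in astrocyte-like cells, 104 CPM in EMF+AuNPs against 52.4 CPM in Control in oligodendrocyte-like cells, and 77.6 CPM in EMF+AuNPs against 39.0 CPM in Control in endothelial-like cells. Its log2 ratios there were 1.22 (0.98 to 1.51), 0.97 (0.81 to 1.16) and 0.97 (0.74 to 1.25). In all 11 compared types its ratio was above 0.

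Over all typed cells together, several members differed more between the libraries than they did within their cell types. Efnb3 had 157 CPM in typed cells of the EMF+AuNPs library and 254 CPM in those of the Control library, a log2 ratio of -0.69. With each type of the EMF+AuNPs library weighted by its share of UMIs in the Control library, the ratio was -0.15. Likewise Ephb1 had -0.43 and then -0.07, Unc5b -0.43 and then -0.05, and Sema6a -0.57 and then -0.26. All 4 are led by oligodendrocyte-like cells, which held 22.9% of typed UMIs in the EMF+AuNPs library and 36.5% in the Control library. Plxnb3, also led by oligodendrocyte-like cells, had -0.33 and then 0.17, a change of sign. Plxnb1, led by astrocyte-like cells, had 0.49 and then 0.16. Of members led by endothelial-like cells, Robo4 had 0.28 and then about 0, Sema3c 0.72 and then 0.46, and Sema7a -0.06 and then -0.20, further from 0. Of the 22 members with at least 1000 UMIs in typed cells, 16 had a ratio nearer 0 at the Control mix, as had 57.1% of all genes with as many UMIs. Plxnb2 (0.47 and then 0.46) and Unc50 (0.90 and then 0.99) changed little. This weighting was chosen after the data were seen.

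**Figure D5:**
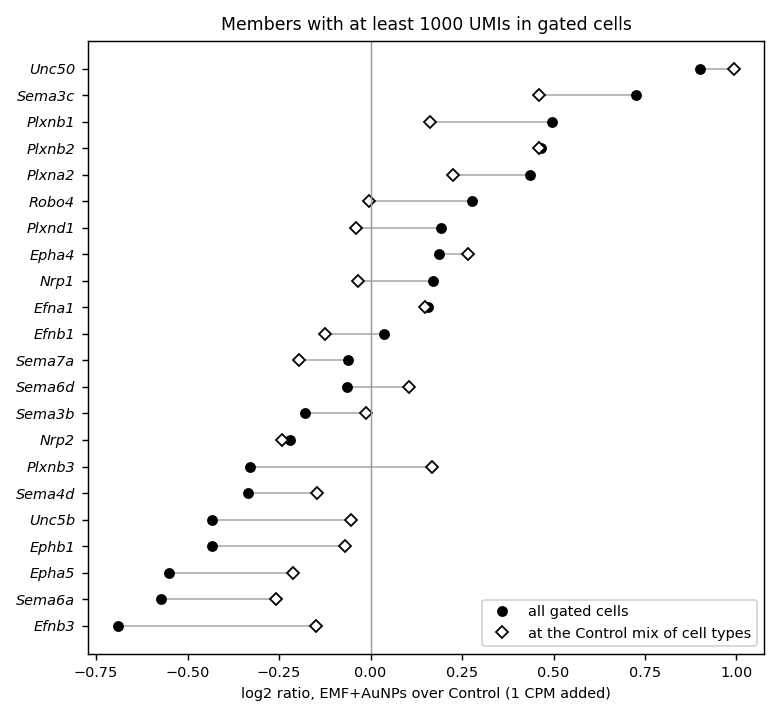
Log2 ratio of the EMF+AuNPs over the Control library (horizontal axis, 1 CPM added) for the 22 members with at least 1000 UMIs in typed cells, over all typed cells (filled circles) and with the cell types weighted as in the Control library (open diamonds). Efnb3, Ephb1, Unc5b and Sema6a, at -0.69 to -0.43 over all typed cells, lie at -0.26 to -0.05 once weighted.

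Genes that act with these ligands and receptors inside or beside the cell were followed in a list of 72: co-receptors, collapsin response mediators, adaptors and other partners, all 72 present in the tables. In astrocyte-like cells 5 of 35 compared genes were at least 1.5-fold higher and 5 lower, in oligodendrocyte-like cells 1 and 6 of 35, in endothelial-like cells 2 and 5 of 38, and in microglia-like cells 1 and 5 of 29. Dpysl2, the collapsin response mediator that carries semaphorin 3 signals to microtubules, was higher in all 4. It had 263 CPM in the EMF+AuNPs library against 91.5 CPM in the Control library in astrocyte-like cells, and 843 CPM in EMF+AuNPs against 365 CPM in Control in oligodendrocyte-like cells. In microglia-like cells it had 197 CPM in EMF+AuNPs against 96.2 CPM in Control, and in endothelial-like cells 180 CPM in EMF+AuNPs against 88.5 CPM in Control. Its log2 ratios lay between 1.01 and 1.51, with no interval that held 0. Pak2, a kinase that acts on the cytoskeleton, was lower in all 4, with log2 ratios of -1.01 (-1.23 to -0.80) in microglia-like, -0.82 (-0.95 to -0.70) in oligodendrocyte-like, -0.99 (-1.18 to -0.83) in astrocyte-like and -0.77 (-0.92 to -0.63) in endothelial-like cells. It was named after its values were seen. Dcc, the netrin receptor, had 8.62 CPM in the EMF+AuNPs library and 3.42 CPM in the Control library in astrocyte-like cells, from 31 UMIs in EMF+AuNPs and 19 in Control. Nck2, an adaptor of Eph and netrin receptors, had 10.2 CPM in EMF+AuNPs against 2.92 CPM in Control in endothelial-like cells. Mical3, of the family that oxidises actin downstream of plexins, was lower in microglia-like cells at 7.50 CPM in EMF+AuNPs against 21.1 CPM in Control.

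In the smaller types the list had 5 higher and 8 lower of 27 genes in excitatory neuron-like cells, 5 and 1 of 13 in choroid plexus-like cells, 2 and 2 of 16 in pericyte-like cells, 2 and 2 of 19 in smooth muscle-like cells, 1 and 1 of 12 in ependymal-like cells, and 2 and 1 of 6 in border macrophage-like cells. The shares of all genes given above for each type are the background of these counts too.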

How the data were processed

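Each deposited table is a matrix of raw UMI counts, genes by cell barcodes, with no scaling. The submitters' processing notes name Cell Ranger 3.0.2, STAR and the build mm10, while the authors' annotation is not stated in them. The tables name 24130 symbols, 123 of them joint and not used, and 0 mitochondrially encoded genes. Hippocampi were dissociated with papain and processed by the 10x protocol, per the labels' protocols.

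Cells with at least 500 UMIs were typed by 171 marker genes of 19 types (6 missing from the tables). A cell needed 3 distinct markers and 25% of the type's usual marker share. Cells whose second type, with at least 2 markers, exceeded 50% of the first were left out as likely doublets (903 EMF+AuNPs and 3039 Control cells), as were 414 and 933 cells of no type. A Scrublet-type caller served as an alternative, with 5.60% and 17.3% of cells called.

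UMIs were summed per type and library and divided by the type total to give CPM, with exact Poisson 95% intervals. The log2 ratio adds 1 CPM to both libraries, and its interval (exact, conditional binomial) is that of the ratio without this addition, so at low counts the printed ratio can lie off its middle. UMIs are whole molecules, but intervals cover counting error only, and a count of 0 allows up to 3. No test was computed with 1 library per group, and scaling was not centred unless stated. The scripts were tested on simulated data. Python 3.11.15, numpy 2.4.6 and scipy 1.17.1 were used.

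Named for location were members with at least 100 UMIs led at least 2-fold by the same type in both libraries, at most 6 per role. Named for the comparison were members at least 1.5-fold apart, at most 6 per direction and type by UMIs, and from the list of 72 the 2 largest ratios in each of the 4 largest types. Other members were named after their values were seen. The members and lists were chosen with earlier results of these data known. Of overlapping genes, Plxna4 and Plxna4os1, Ephb4 and Zan, Epha1 and Zyx, Ntn5 and Sec1, and Unc5a and Hk3 lie on opposite strands and Ntn3 and Tbc1d24 on the same strand. Their counts may therefore include reads of the overlapping gene. One semaphorin, and 1 of the genes that the rule for the list of 72 names, are not reported here.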

Additional observations from a re-analysis of the deposited data

Results flagged for a closer look

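For 3 members the log2 ratio of EMF+AuNPs over Control was above 0 in one cell type and below 0 in another, each with a counting interval that did not hold 0. Plxnb1 had 0.50 in astrocyte-like cells (294 CPM in the EMF+AuNPs library, 207 CPM in the Control library) and -0.47 in oligodendrocyte-like cells (47.3 CPM in EMF+AuNPs and 65.7 CPM in Control), a difference of 0.97, or 0.80 after centring each type on the median of all genes. Its ligand Sema4d had 0.40 in astrocyte-like cells (27.8 CPM in EMF+AuNPs and 20.9 CPM in Control) and -0.66 in oligodendrocyte-like cells (32.6 CPM in EMF+AuNPs and 52.1 CPM in Control), a difference of 1.06, or 0.89 after centring. Efnb3 had 1.18 in excitatory neuron-like cells and -0.23 in oligodendrocyte-like cells, a difference of 1.42, or 1.67 after centring. With 1 library per group, none of these differences was tested, and chance between libraries cannot be told apart from treatment. As a measure of RNA from other types, oligodendrocyte markers summed to 2146 CPM in astrocyte-like cells of the EMF+AuNPs library and 1451 CPM in those of the Control library. Astrocyte markers summed to 2680 CPM in EMF+AuNPs and 2795 CPM in Control in oligodendrocyte-like cells. The part of RNA from other types in these differences was not tested.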

How the results depend on the processing

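No paired analysis was possible because each group holds 1 library, and leaving out a replicate was not possible for the same reason. None of the 23 named ratios changed direction under the settings in which its cell type was still compared. Counts and medians were not checked for direction. The counts of members by location kept within 1.5 times under every setting run for them. The 20 higher pairs of a member and a type became 13 with 10 CPM added, 10 with TMM factors, 13 when centred, 36 with at least 20 UMIs, 8 with at least 200 and 152 without a filter on low values. The 4 lower pairs became 8 with at least 1000 UMIs per cell (over 9 types), 2 with 10 CPM added, 7 with at least 20 UMIs, 2 with at least 200, 13 without the condition on the highest type and 148 without a filter. For the list of 72, the 26 higher pairs became 16 with TMM factors, 45 with at least 20 UMIs, 14 with at least 200, 46 without the condition on the highest type and 150 without a filter, and the 36 lower pairs became 23, 55 and 174 under the last 3. The members' median in astrocyte-like cells was 0.11 without a filter. With at least 1 vessel marker there were 572 arterial and 20 venous cells in the EMF+AuNPs library, and 1552 and 129 in the Control library, and without Clu 97 and 87, and 249 and 185. Of 23 named ratios, 16 stayed at least 1.5-fold when centred, 14 with TMM factors and 15 with 10 CPM added, where Sema4d in oligodendrocyte-like and Efna2 in astrocyte-like cells were among those lost. Without the top cell of each gene, Slit1 in excitatory neuron-like and Slit2 in choroid plexus-like cells fell within 1.5-fold. With the mean of per-cell CPM these 2 did so too, as did Robo1 in astrocyte-like and Unc50 in choroid plexus-like cells. Plxnb2 in pericyte-like cells fell within 1.5-fold when cells of a second type were kept. With cells called doublets by the Scrublet-type caller left out, which gave 19 of the 23, Robo1, Robo2 and Plxna1 in astrocyte-like cells did. The cause of these moves was not tested, other than that the UMI minimums change how many genes are compared. Depth limits the members of excitatory neuron-like cells, at 67212 UMIs in the EMF+AuNPs library against 700683 in the Control library.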

Other observations

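Some members were highest in types with under 50 cells in a library, which were left out of every comparison. In 45 fibroblast-like cells of the EMF+AuNPs library and 88 of the Control library, Efnb1, a transmembrane ephrin, had 221 CPM from 31 UMIs in EMF+AuNPs and 105 CPM from 22 UMIs in Control. The highest compared type for Efnb1, endothelial-like, had 36.9 CPM in EMF+AuNPs and 40.8 CPM in Control. Leaving out cells called doublets by the Scrublet-type caller kept 45 fibroblast-like cells in EMF+AuNPs but 4 in Control. Efna5, a lipid-anchored ephrin, had 92.6 CPM from 13 UMIs in EMF+AuNPs and 52.3 CPM from 11 UMIs in Control in the same fibroblast-like cells, with choroid plexus-like cells at 17.8 CPM in EMF+AuNPs and 14.7 CPM in Control. Cajal-Retzius-like cells, of a neuron type known for its role in layering the cortex, numbered 44 in EMF+AuNPs and 140 in Control. In them the Slit receptor Robo2 had 102 CPM from 7 UMIs in EMF+AuNPs and 116 CPM from 31 UMIs in Control. In cells gated as oligodendrocyte precursors (15 in EMF+AuNPs, 49 in Control), Sema5b had 130 CPM from 4 UMIs in EMF+AuNPs and 34.9 CPM from 3 UMIs in Control.

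In microglia-like cells, genes led by oligodendrocyte-like cells were also counted at low levels. Efnb3 had 66.1 CPM in the EMF+AuNPs library and 24.1 CPM in the Control library there, and Unc5b 21.8 CPM in EMF+AuNPs and 7.32 CPM in Control, beside oligodendrocyte marker sums of 2667 CPM in EMF+AuNPs and 1148 CPM in Control. Neither gene met the condition for a comparison in microglia-like cells.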
